A study of Homo sapiens with 6 samples.

Results

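The genes described here were 10 NF-κB response genes of the human colon carcinoma line HCT-116, namely the chemokines CXCL1, CXCL2, CXCL3, CXCL8 and CCL20 and the regulators and targets TNFAIP3, NFKBIA, BIRC3, RELB and ICAM1. They were taken by symbol from a table of 60546 gene identifiers, and all 10 were found, each in a single row. Total RNA of the line HCT-116-PMSCV-GOLPH3 (3 libraries) was compared with that of its control line, HCT-116-PMSCV-Vector (3 libraries). Both lines had been made by infecting HCT-116 with a viral construct based on PMSCV and selecting with puromycin, and the construct carried either GOLPH3, a phosphoprotein of the Golgi membrane, or no insert. The study asked how gene expression differs when GOLPH3 is overexpressed in colon cancer cells. No cytokine or other stimulus is given for any library, so the values are those of cells in ordinary serum-containing medium. Each group was a single stable cell line, and its 3 libraries came from different generations of that line, so the p-values measure the spread between these samples and not between independently made lines. A number preceded by the letter P also stands in the library names, and it was P8, P12 and P13 in the libraries labelled GOLPH3 and P12, P11 and P13 in the libraries labelled Vector. The meaning of P is not stated in the labels, and each library is called by its group label and its P number.

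NF-κB is a family of transcription factors that IκB proteins hold inactive in the cytoplasm. Cytokines such as TNF and IL-1 activate the IκB kinase complex, IκBα is phosphorylated and degraded, and the freed dimers of RELA and NFKB1 bind κB sites in the promoters of their targets. In a slower, non-canonical branch, the kinase MAP3K14 promotes processing of the NFKB2 precursor, and the product acts together with RELB. The targets include chemokines that draw neutrophils and lymphocytes, survival genes, and the inhibitors that switch the response off again. Colon epithelial cells and colon carcinoma lines are known sources of these chemokines.

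Promoters of the members are shown because the κB site is the element that this gene family shares. RefSeq promoters (build GRCh38.p14, 250 bases before to 50 bases after the transcription start) were found for 9 of the 10 members, all but RELB. The κB consensus, searched on both strands, was present in 7 of these 9 promoters and in 11.3% of all 35116 promoters. The stretches around the matches are written 5′ to 3′ on the strand of the gene, with the κB consensus in capitals. In CXCL1, CXCL2 and CXCL3 the matches on both strands overlap and form a single run of capitals.
CXCL1, chr4:73869294-73869344, plus strand: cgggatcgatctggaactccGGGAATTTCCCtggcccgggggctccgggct
CXCL2, chr4:74099243-74099293, minus strand: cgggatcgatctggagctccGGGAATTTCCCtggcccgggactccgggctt
CXCL3, chr4:74038738-74038788, minus strand: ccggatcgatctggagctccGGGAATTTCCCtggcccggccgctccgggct
CCL20, chr2:227813743-227813792, plus strand: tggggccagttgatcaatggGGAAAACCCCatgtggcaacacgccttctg
TNFAIP3, chr6:137867172-137867233, plus strand: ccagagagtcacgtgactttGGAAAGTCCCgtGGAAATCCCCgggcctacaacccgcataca
NFKBIA, chr14:35404801-35404850, minus strand: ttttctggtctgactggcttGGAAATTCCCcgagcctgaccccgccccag
BIRC3, chr11:102317265-102317378, plus strand: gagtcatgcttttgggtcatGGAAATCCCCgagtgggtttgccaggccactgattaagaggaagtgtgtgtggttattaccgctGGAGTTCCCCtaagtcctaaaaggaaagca

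The promoters of CXCL8 and ICAM1 did not hold the full consensus, and they were searched, after this had been seen, for the shorter κB core GGAATTTCC. This core was in 6 of the 9 promoters, those of CXCL1, CXCL2, CXCL3, CXCL8, NFKBIA and ICAM1, and in 0.461% of all promoters. In CXCL1, CXCL2, CXCL3 and NFKBIA it lies within the consensus match shown above. Because the search was prompted by CXCL8 and ICAM1, these counts are a description and not further evidence of κB sites. In the stretches below, the capitals mark the core or its reverse complement.
CXCL8, chr4:73740458-73740506, plus strand: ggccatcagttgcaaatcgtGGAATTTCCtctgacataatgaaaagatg
ICAM1, chr19:10270914-10270962, plus strand: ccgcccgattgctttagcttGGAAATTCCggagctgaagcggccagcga
The matches began 77 to 91 bases before the start in CXCL1, CXCL2, CXCL3, CXCL8, CCL20 and NFKBIA, 67 and 55 bases before it in TNFAIP3, and farther upstream in BIRC3 (199 and 135 bases) and ICAM1 (186 bases). The AP-1 motif TGANTCA was found in the CXCL8 promoter alone among the 9, beginning 137 bases before the start, and in 7.71% of all promoters. A match is a description of the letters and does not show that a factor was bound in these cells.

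**Figure D1:**
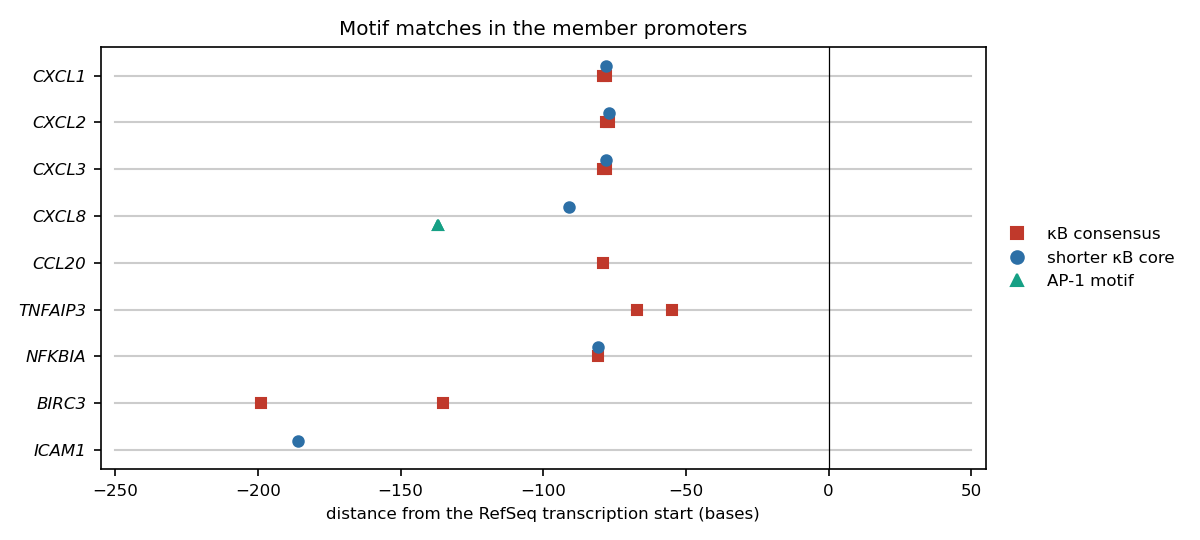
Position of each motif match (x axis, bases from the RefSeq transcription start, negative values upstream) in the promoters of the 9 members with a RefSeq entry (rows). Squares mark the κB consensus, circles the shorter κB core and the triangle the AP-1 motif, and in 6 promoters the κB matches lie 77 to 91 bases upstream of the start.

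CXCL8 (chr4:73740506-73743716, plus strand), CXCL1 (chr4:73869393-73871242, plus strand), CXCL3 (chr4:74036589-74038807, minus strand) and CXCL2 (chr4:74097035-74099293, minus strand) lie in the CXC chemokine cluster of chromosome 4 (GRCh38, GENCODE 29). The other members lie apart, with CCL20 at chr2:227805739-227817564 (plus strand), TNFAIP3 at chr6:137867188-137883312 (plus strand), NFKBIA at chr14:35401511-35404749 (minus strand), BIRC3 at chr11:102317450-102339403 (plus strand), and RELB and ICAM1 at chr19:45001430-45038198 and chr19:10270835-10286615 (both plus strand). CXCL1, CXCL2 and CXCL3 are close copies, and 4.81%, 12.5% and 6.01% of the 50-base stretches of their transcripts were shared with another gene. The counts of these 3 genes may therefore be uncertain. These shares do not measure how far, which depends on the length of the reads and the handling of reads with several matches.

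Library depth was 15708846 to 21900764 reads, and a gene with no read could still have had up to 3 reads, or 2.47 to 3.29 normalized reads, counting error only. Mitochondrial genes took 4.41% to 9.97% of the reads. The GOLPH3 transcript itself was not higher in the libraries labelled GOLPH3, with 1630, 1272 and 1383 normalized reads against 1968, 1892 and 1472 in the libraries labelled Vector (log2 difference -0.31, SE 0.27, limma adjusted p = 0.609). Of the 12 epithelial markers, KRT20 was at 0 in every library, and their sum was 77610 to 156100 normalized reads under the label GOLPH3 and 35160 to 45320 under the label Vector. Most of this sum was KRT8, KRT18 and KRT19. Of the 11 tested, 4 (36.4%) were called higher under the label GOLPH3, against 0.953% of all genes, and none lower. CDX2 alone had a lower estimate (-0.52, SE 0.49, limma adjusted p = 0.636). VIL1 (1.03 to 3.30) and LGALS4 (0 to 5.37) were near the detection limit. The sum of 9 mesenchymal and neural markers was 37.36 to 154.2 under the label GOLPH3 and 9039 to 23190 under the label Vector, with all 9 called lower, although this list had been picked with earlier results of these data known. The sum of 14 leukocyte markers was 28.04 to 91.8 across the libraries, with CD3D, CD3E, TYROBP and AIF1 at 0 in all of them, and the sum of 10 endothelial and stromal markers was 493 to 1529, with DCN at 0. Most of the latter sum was COL1A1, at 465.59 to 1498.74 normalized reads, whereas COL1A2 was at 0 to 2.15 and COL3A1 at 0 to 46.34. The part of all these markers in the results on NF-κB genes was not tested. Because these are bulk samples, fewer cells of a kind and less RNA per cell cannot be told apart.

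Compared per length, in TPM (transcript abundance scaled to a fixed total in each library) over the genes with an annotated length, NFKBIA was the most abundant member, with a mean of 88.2 TPM over the 6 libraries (42.9 to 156). CXCL8 followed at 53.4 TPM (16.5 to 156), then RELB at 40.0, CXCL2 at 30.8, CXCL1 at 30.5, TNFAIP3 at 23.3 and BIRC3 at 21.5 TPM. CXCL3 (7.50 TPM), CCL20 (5.21 TPM) and ICAM1 (0.909 TPM) were the least abundant. The ranges over the libraries overlapped between all neighbours in this order. Within libraries, BIRC3 was above CXCL3 and CXCL3 above CCL20 in all 6, whereas CXCL2 was above CXCL1 in 1 of 6, CXCL1 above TNFAIP3 in 3 and TNFAIP3 above BIRC3 in 4, so the order of these last neighbours changed from library to library. In the library labelled GOLPH3 P12 the CXCL8 level (156 TPM) was level with that of NFKBIA (156 TPM), while in GOLPH3 P8 it was 16.5 against 54.5 TPM.

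The members were first compared between the labels. None of the 10 passed the test for GOLPH3 against Vector (limma, adjusted p under 0.05), where 5.07% of all 26536 genes tested did. ICAM1 alone had an unadjusted p under 0.05 in limma, as did 4663 of the 26536 genes tested. On the recovered reads, edgeR and DESeq2 also called none, and they had 1 and 2 members with an unadjusted p under 0.05. The groups overlapped for all 10 members, whereas they did not overlap for 22.0% of all genes tested. The median log2 difference of the members was 0.45, against 0.02 over all genes tested. The values below show that the libraries of a label were far apart and that the P12 libraries were the high ones under both labels.

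CXCL1, CXCL2 and CXCL3 encode chemokines that attract neutrophils through the receptor CXCR2. CXCL1 stood at 64.41, 700.09 and 157.99 normalized reads in GOLPH3 P8, P12 and P13 and at 212.03, 42.72 and 74.66 in Vector P12, P11 and P13. CXCL2 was measured at 21.47, 987.05 and 82.2 normalized reads in the same GOLPH3 libraries and at 235.71, 25.2 and 85.82 in the Vector libraries. For CXCL3 the values were 11.81, 299.33 and 29.89 under the label GOLPH3 and 120.43, 23.01 and 33.47 under the label Vector. In each of these 3 genes both P12 libraries were above the other 4 libraries, GOLPH3 P12 was the highest, and P8 and P11 were the lowest. Between the labels the log2 difference was 1.12 for CXCL1 (SE 0.77, limma adjusted p = 0.502), 0.59 for CXCL2 (SE 1.13, adjusted p = 0.835) and 0.08 for CXCL3 (SE 0.98, adjusted p = 0.98).

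CXCL8, or interleukin 8, attracts neutrophils through CXCR1 and CXCR2, and CCL20 attracts CCR6-bearing lymphocytes and dendritic cells. CXCL8 reached 205.03, 1842.17 and 351.2 normalized reads in GOLPH3 P8, P12 and P13 and 893.42, 239.92 and 278.05 in Vector P12, P11 and P13. CCL20 was near the detection limit in GOLPH3 P8, at 3.22 normalized reads, and was 141.83 in GOLPH3 P12 and 8.54 in GOLPH3 P13. In the libraries labelled Vector, CCL20 was 86.46 at P12, 6.57 at P11 and 10.3 at P13. CCL20 had the widest gap of all members, since the lower P12 library was 8.40 times the highest of the other 4. The difference between the labels was 0.38 on the log2 scale for CXCL8 (SE 0.71, limma adjusted p = 0.829) and -0.13 for CCL20 (SE 1.2, adjusted p = 0.975), and the sign of the latter changed with edgeR and with quantile normalization.

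TNFAIP3 encodes A20, a ubiquitin-editing enzyme that ends NF-κB signalling, and NFKBIA encodes IκBα, which returns NF-κB to the cytoplasm. TNFAIP3 was at 205.03, 1072.81 and 487.84 normalized reads in GOLPH3 P8, P12 and P13 and at 916.06, 415.2 and 588.72 in Vector P12, P11 and P13. NFKBIA was at 707.41, 1918.03 and 1356.77 under the label GOLPH3 and at 1121.92, 548.85 and 1037.55 under the label Vector. For TNFAIP3 both P12 libraries were the highest, but for NFKBIA the library GOLPH3 P13 was above Vector P12. The antisense gene AL357060.1 overlaps TNFAIP3 at 11.81 to 31.91 normalized reads, and whether the counting used strand is not given in the sources used here. Between the labels TNFAIP3 differed by -0.35 (SE 0.52, limma adjusted p = 0.78) and NFKBIA by 0.51 (SE 0.4, adjusted p = 0.567) on the log2 scale.

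BIRC3 encodes cIAP2, a ubiquitin ligase of the TNF receptor complex that protects from cell death, and RELB encodes the NF-κB subunit of the non-canonical branch. BIRC3 was at 368.2, 1594.79 and 390.7 normalized reads in GOLPH3 P8, P12 and P13 and at 1168.24, 1104.28 and 453.98 in Vector P12, P11 and P13. RELB was at 212.54, 1726.72 and 916.97 under the label GOLPH3 and at 568.17, 189.52 and 325.25 under the label Vector. BIRC3 departed from the order of the chemokines, since Vector P11 was close to Vector P12, the lower P12 library being only 1.06 times the highest of the other 4. In RELB, GOLPH3 P13 was above Vector P12, as in NFKBIA. Between the labels BIRC3 differed by -0.45 (SE 0.54, limma adjusted p = 0.726) and RELB by 1.09 (SE 0.64, adjusted p = 0.428) on the log2 scale.

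ICAM1, the adhesion molecule that leukocyte integrins bind, was hardly expressed. It was at 13.95, 44.53 and 29.89 normalized reads in GOLPH3 P8, P12 and P13 and at 3.09, 0 and 18.02 in Vector P12, P11 and P13. Vector P12 and P11 were at or under the limit of 3 reads, and Vector P13 lay above GOLPH3 P8, so the groups overlapped through this library. The fitted log2 difference of 2.69 (SE 0.94, limma adjusted p = 0.143) was the largest of the members between the labels, and its size depends on the pseudocount of 1. ICAM1 was also the only member for which Vector P12 was lower than Vector P13 and GOLPH3 P8.

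**Figure D2:**
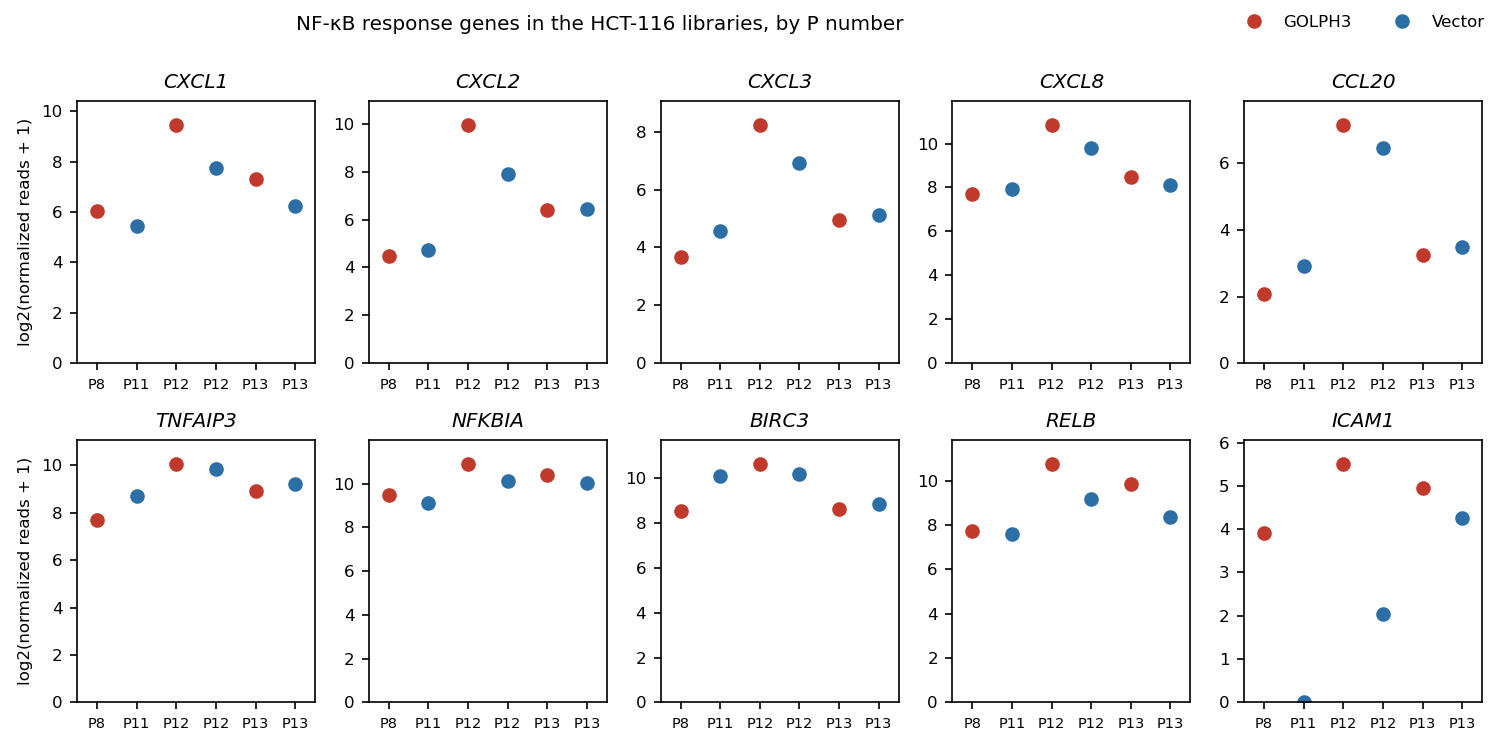
Level of each member (y axis, log2 of normalized reads plus 1, starting at 0) in the 6 libraries ordered by P number (x axis), red for the label GOLPH3 and blue for the label Vector, 1 point per library. In 7 of the 10 panels both P12 points lie above the other 4 points, and in every panel the red and blue ranges overlap.

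The members were also compared between the P12 pair and the pair of P8 and P11, with the label as a term in the limma fit. This comparison was chosen with earlier results of these data known, so it puts a size and an error on the pattern seen in the values above and is not independent evidence of it. Of the 10 members, 8 were called higher at P12 (adjusted p under 0.05), against 6.08% of all genes tested, and all 10 estimates were positive. Their median log2 difference was 2.41, against 0.04 over all genes. CXCL2 and CCL20 had the largest differences, at 4.32 (SE 0.49, adjusted p = 0.000447, 19.9-fold) and 4.31 (SE 0.63, adjusted p = 0.00182, 19.8-fold), and the CCL20 estimate rests on P8 and P11 libraries with few reads. CXCL3 rose by 3.45 (SE 0.54, adjusted p = 0.00254, 10.9-fold), CXCL1 by 2.85 (SE 0.34, adjusted p = 0.000515, 7.23-fold) and CXCL8 by 2.53 (SE 0.28, adjusted p = 0.000374, 5.76-fold). All 5 chemokines therefore passed. The size of the largest folds depended on single P12 libraries, since the log2 difference of CXCL2 was 3.22 (9.32-fold) without GOLPH3 P12 and 5.42 (42.8-fold) without Vector P12, and that of CXCL3 was 2.53 and 4.36. The difference of CCL20 was 3.68 (12.8-fold) without GOLPH3 P12 and 4.93 (30.5-fold) without Vector P12.

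Of the regulators, RELB was 2.30 higher on the log2 scale at P12 (SE 0.31, limma adjusted p = 0.00109, 4.92-fold), TNFAIP3 1.76 (SE 0.27, adjusted p = 0.00231, 3.39-fold) and NFKBIA 1.23 (SE 0.19, adjusted p = 0.00263, 2.35-fold). BIRC3 (1.1, SE 0.35, adjusted p = 0.0759) and ICAM1 (1.82, SE 0.85, adjusted p = 0.211) did not pass. Both P12 libraries lay above all 4 other libraries for 7 of the 10 members, the exceptions being NFKBIA, RELB and ICAM1, and for 6.74% of all genes tested. The calls depended on 1 library and on the label term, while the estimates stayed positive. Without the library GOLPH3 P12 only CXCL2 and CXCL8 passed, and the estimates were 2.41 for CXCL1, 3.68 for CCL20, 1.91 for RELB, 1.33 for TNFAIP3 and 1.04 for NFKBIA. Without the label term the 10 estimates were identical, but none of the members and none of all genes passed. Against all 4 other libraries none passed either, with estimates of 3.87 for CCL20, 3.41 for CXCL2 and 2.28 for CXCL8. In each of these fits 8 members had an unadjusted p under 0.05 in limma, but the share of all genes under it was not counted. In the main P12 fit, 9 members and 6511 of the 26536 genes tested were under it. Mitochondrial reads were 4.41% in GOLPH3 P12 and 7.08% in Vector P12, and 9.97% and 9.88% in the P8 and P11 libraries. They were 9.75% in GOLPH3 P13 and 4.71% in Vector P13. The part of the mitochondrial share in the difference was not tested.

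Within each label, where no test is possible with 1 library on each side, P12 was above P8 in the libraries labelled GOLPH3 for all 10 members, by a median of 3.09 on the log2 scale (1.44 to 5.46). P12 was above P11 in the libraries labelled Vector for all 10 as well, by a median of 1.96 (0.08 to 3.53). For ICAM1 this step (2.03) was between 3.09 and 0 normalized reads, at or under the limit of 3 reads, so it depends on the pseudocount. The largest steps were those of CXCL2 under the label GOLPH3 (5.46) and of CCL20 under the label Vector (3.53), and the smallest was that of BIRC3 under the label Vector (0.08).

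At P13, 3 of the regulators stood higher than at P8 and P11, while CXCL2 alone passed among the chemokines. Called higher at P13 against P8 and P11 were 4 of the 10 members, against 10.0% of all genes tested. These were CXCL2 (1.81, SE 0.49, limma adjusted p = 0.0258), RELB (1.44, SE 0.31, adjusted p = 0.00886), NFKBIA (0.93, SE 0.19, adjusted p = 0.00787) and TNFAIP3 (0.87, SE 0.27, adjusted p = 0.0445). The estimates of CXCL1 (1.04, adjusted p = 0.0556) and ICAM1 (2.65, adjusted p = 0.0516) fell short of the threshold, as did those of CXCL3 (0.90), CCL20 (0.88), CXCL8 (0.49) and BIRC3 (-0.60). TNFAIP3 did not pass with edgeR (adjusted p = 0.0616), quantile normalization or a pseudocount of 0.1, and CXCL2 did not pass with the latter 2. The number of members called was 7 without the library Vector P11 and 0 without the label term, where the estimates were identical. It was 1 without Vector P13, where RELB was called (1.74) and the estimates were 1.32 for CXCL2, 0.94 for TNFAIP3 and 0.84 for NFKBIA.

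Set directly against P13, the P12 pair was higher in 6 of the 10 members, against 1.88% of all genes tested. They were the 5 chemokines, with log2 differences of 3.43 for CCL20 (SE 0.63, limma adjusted p = 0.0182), 2.55 for CXCL3 (SE 0.54, adjusted p = 0.0279), 2.51 for CXCL2 (SE 0.49, adjusted p = 0.0206), 2.03 for CXCL8 (SE 0.28, adjusted p = 0.00696) and 1.82 for CXCL1 (SE 0.34, adjusted p = 0.0182), and BIRC3 at 1.69 (SE 0.35, adjusted p = 0.0272). NFKBIA (0.31, 95% CI -0.12 to 0.73, adjusted p = 0.452) did not pass, nor did RELB (0.86, CI 0.18 to 1.53, adjusted p = 0.158) and TNFAIP3 (0.89, CI 0.30 to 1.47, adjusted p = 0.0986). ICAM1 was the only member with a negative estimate (-0.83, SE 0.85, adjusted p = 0.685). The comparisons of P12 and of P13 with P8 and P11 share the latter libraries, so their values for a member are not independent.

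**Figure D3:**
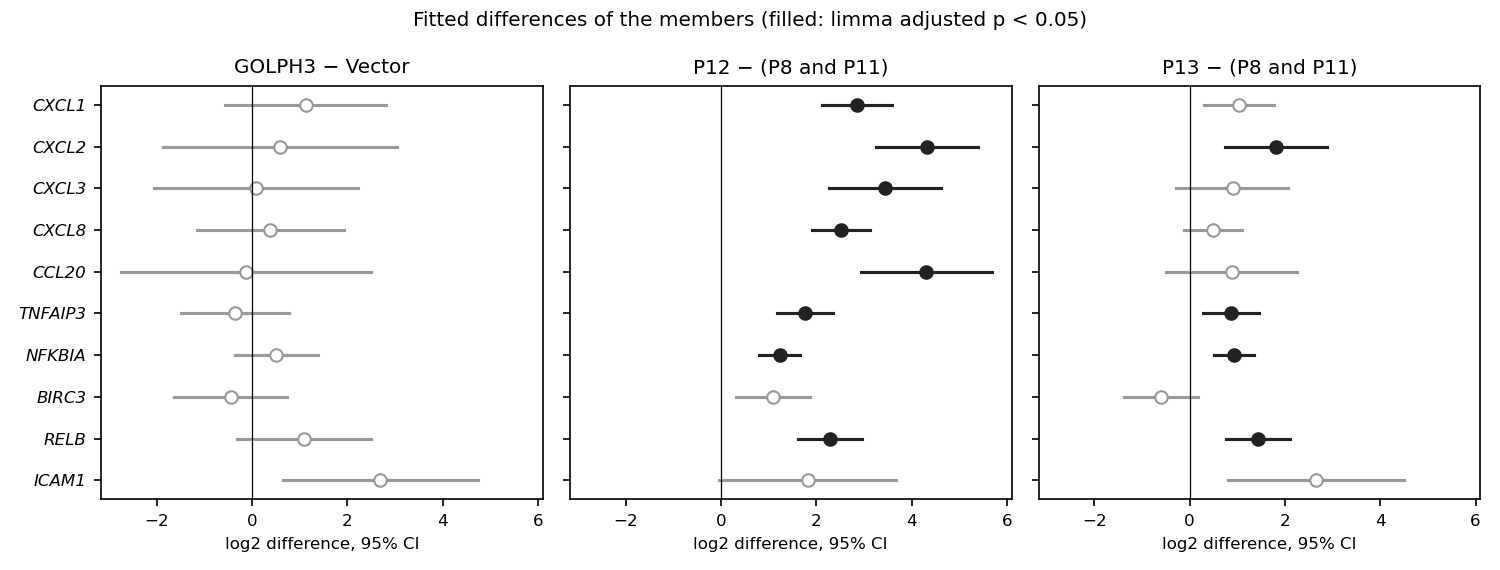
Log2 difference (x axis) with its 95% confidence interval for each member (rows) between the labels (left), at P12 (middle) and at P13 (right), the latter both against P8 and P11 with the label as a term; filled points passed limma at an adjusted p under 0.05. No point is filled on the left, 8 are filled in the middle and 4 on the right.

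Each of P12, P13 and the remaining pair held 1 library of each label, so the labels could also be compared within pairs. At P12 the library labelled GOLPH3 was above the library labelled Vector for all 10 members, by a median of 1.18 on the log2 scale (0.23 for TNFAIP3 to 3.48 for ICAM1). At P13 the difference was positive for 5 members and negative for 5, with a median of 0.14 (-0.27 to 1.49). Between GOLPH3 P8 and Vector P11 it was positive for 4 and negative for 6, with a median of -0.22 (-1.58 to 3.90). CXCL1, NFKBIA, RELB and ICAM1 were higher under the label GOLPH3 in all 3 pairs, but ICAM1 in Vector P12 and P11 was at or under the limit of 3 reads. CXCL2, CXCL3, CCL20, TNFAIP3 and BIRC3 were higher under that label at P12 and lower in both other pairs, and CXCL8 was lower in the pair of P8 and P11. Whether the label difference was larger at P12 was tested with an interaction term in limma, and none of the 10 members and none of all genes passed (adjusted p = 1.0 for each member, with no member at an unadjusted p under 0.05). All 10 interaction estimates were positive, from 0.40 to 2.20 on the log2 scale, and 297 of the 26536 genes had an unadjusted p under 0.05.

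With the P number as a block in the fit, the standard errors were smaller, and the 4 members that were higher in all 3 pairs were called higher under the label GOLPH3, against 9.43% of all genes tested called higher. They were RELB (1.09, SE 0.25, limma adjusted p = 0.00927), CXCL1 (1.12, SE 0.28, adjusted p = 0.0126), ICAM1 (2.69, SE 0.69, adjusted p = 0.016) and NFKBIA (0.51, SE 0.16, adjusted p = 0.0392). The P8 and P11 libraries form a block only because they remained.

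**Figure D4:**
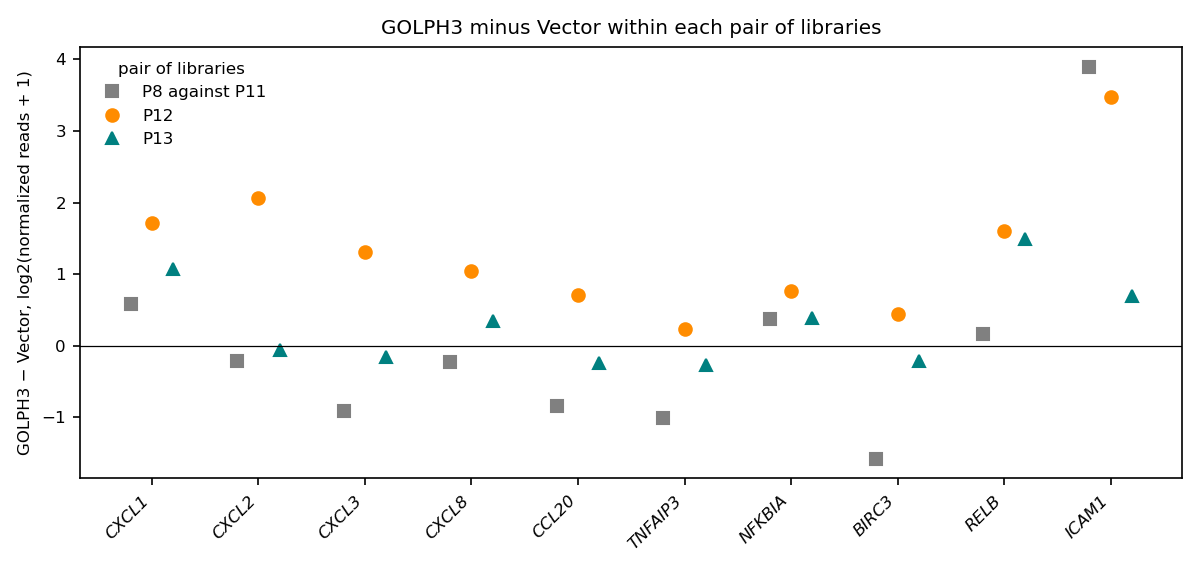
Difference between the library labelled GOLPH3 and the library labelled Vector (y axis, log2 of normalized reads plus 1) for each member (x axis) within the pairs P8 against P11 (squares), P12 (circles) and P13 (triangles), 1 value per pair. All 10 circles lie above 0, while 5 triangles and 6 squares lie below it.

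Across the 6 libraries most members varied together, and the lowest correlations were those of ICAM1 and of BIRC3 (0.24 with NFKBIA). Over the 45 pairs of members, Pearson's r of the log2 levels ran from -0.32 to 0.99 with a median of 0.78, and without ICAM1 the 36 pairs ran from 0.24 to 0.99 with a median of 0.88, as a description of 6 libraries that share the P12 pair. Among the 12661 genes with a mean of at least 50 normalized reads, the genes most like CXCL8 were EFNB2 (r = 0.996), AMMECR1L (0.995), AVEN (0.991), UBE2D2 (0.987) and NFKB1 (0.986). Of the members, CXCL3 was in rank 8 of this order, CXCL2 in rank 32, CXCL1 in rank 87, TNFAIP3 in rank 338, RELB in rank 430, NFKBIA in rank 623 and BIRC3 in rank 840. Among the genes most like NFKBIA were TJAP1 (r = 0.998), HEMK1 (0.995), PFDN2 (0.993) and FLYWCH1 (0.992), and RELB was in rank 133. The other members followed in ranks 430 (CXCL1), 686 (CXCL2), 1620 (CXCL8), 1835 (CXCL3), 2269 (TNFAIP3) and 5213 (BIRC3), so many genes outside the list varied more like NFKBIA than the member chemokines did.

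The rest of the pathway was described from 7 lists of 157 genes, of which 123 were tested. At P12, 29 of the 123 (23.6%) were called higher and 1 lower, against 6.08% higher and 3.40% lower over all genes, and their median log2 difference was 0.44, against 0.04. At P13 as many, 29, were called higher and 13 lower (10.6%), against 10.0% higher and 6.84% lower over all genes. There, of 11 subunits and IκB proteins 6 were higher and 1 lower, and of the adaptors and kinases 8 were higher and 8 lower. Of 24 other NF-κB targets 8 were higher at P13, and of 14 feedback inhibitors 5 were higher and 3 lower. The P12 and P13 fits share the P8 and P11 libraries, so a call at P12 need not be particular to P12. The following counts are those at P12. Of the other NF-κB targets 10 of 24 (41.7%) were called higher, none lower, with a median of 1.19. Among them PLAU, the urokinase plasminogen activator, was at 1061.65, 9413.7 and 2887.53 normalized reads in GOLPH3 P8, P12 and P13 and at 3978.19, 755.9 and 1349.93 in Vector P12, P11 and P13 (2.77, SE 0.21, limma adjusted p = 3.4e-05). The antiapoptotic gene BCL2L1 rose by 1.21 (SE 0.22, adjusted p = 0.00543) and the cytokine gene LIF by 1.17 (SE 0.22, adjusted p = 0.00761). The genes in this comparison that are named for their level in the list were chosen by rule, and those below that were named because they passed at P12 were chosen after their values had been seen.

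Of the NF-κB subunits and IκB proteins, 6 of 11 (54.5%) were called higher at P12 and none lower, with a median of 0.68. NFKB2, the precursor of the partner of RELB, was at 2296.12, 11298.75 and 7126.5 normalized reads in GOLPH3 P8, P12 and P13 and at 4172.73, 1569.87 and 2266.48 in Vector P12, P11 and P13, and rose by 1.85 (SE 0.24, limma adjusted p = 0.000874). NFKB1 rose by 1.02 (SE 0.21, adjusted p = 0.0115) and RELA by 0.68 (SE 0.17, adjusted p = 0.0299). The remaining calls were BCL3 (1.59), NFKBIB (1.34) and NFKBIE (1.04), a coactivator and a pair of IκB proteins. At P13 the differences were 1.08 for NFKB2, 0.64 for RELA, 1.24 for BCL3 and 1.28 for NFKBIB, all of which passed. NFKB1 (0.13) and NFKBIE (0.54) did not pass there. Of the feedback inhibitors, 5 of 14 (35.7%) were called higher at P12, TRAF1 (2.41), ZC3H12A (1.34), TNIP1 (1.05), TOLLIP (1.01) and TNIP2 (0.91), whereas TAX1BP1 (0.16) and ITCH (-0.08), 2 of the most abundant in this list, did not pass. At P13 ZC3H12A (1.24), TNIP1 (0.79), TOLLIP (0.98) and TNIP2 (0.94) were also called higher, and TRAF1 (0.83) did not pass. TAX1BP1 (-0.75) and ITCH (-0.78) were called lower at P13.

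Of the adaptors and kinases, 5 of 29 were called higher and 1 lower, with a median of -0.01. Those higher were RBCK1 (2.47), a subunit of the linear ubiquitin ligase, MAP3K14 (1.48), the kinase of the non-canonical branch, IRAK1 (1.26), TICAM1 (1.18) and SHARPIN (0.94), and TBK1 fell by 0.84. All of these passed at P13 as well, with 1.51 for RBCK1, 0.99 for MAP3K14, 1.12 for IRAK1 and 0.91 for TICAM1. SHARPIN (1.27) and TBK1 (-1.24) moved farther at P13 than at P12. The IκB kinase gene IKBKB did not pass (0.46, SE 0.22, limma adjusted p = 0.213). MALT1, among the most abundant in this list, did not pass either (-0.01, SE 0.18, adjusted p = 0.953), but MALT1 was called lower at P13 (-1.16, adjusted p = 0.00263). Of the upstream ligands and receptors 2 of 22 (9.09%) were called higher, a share near the 6.08% of all genes, namely the TWEAK receptor TNFRSF12A (3.13, SE 0.19, adjusted p = 1.02e-05) and the TRAIL receptor TNFRSF10B (1.6, SE 0.2, adjusted p = 0.000663). TNFRSF12A was at 991.87, 10272.11 and 4849.56 normalized reads in GOLPH3 P8, P12 and P13 and at 3125.94, 422.87 and 1430.6 in Vector P12, P11 and P13, which is the order seen in RELB. The TNF receptor gene TNFRSF1A did not pass (0.42, adjusted p = 0.177), and TNF, LTA and LTB were too low to be tested.

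Of the 12 other chemokines tested only CXCL10, a ligand of CXCR3, was called higher at P12 (1.77, SE 0.47, limma adjusted p = 0.034), a share of 8.33% that is also near that of all genes. CXCL11, also among the most abundant in this list, did not pass (1.05, SE 0.56, limma adjusted p = 0.274). No chemokine receptor of the 11 tested was called, including those of highest mean level, CXCR4 (-1.15), ACKR4 (-0.72) and CCR10 (0.21). The receptors of the members were near or under the detection limit, with CXCR2 at 0 to 8.23 normalized reads, CXCR1 at 1.07 to 9.90 and CCR6 at 0 to 0.86.

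**Figure D5:**
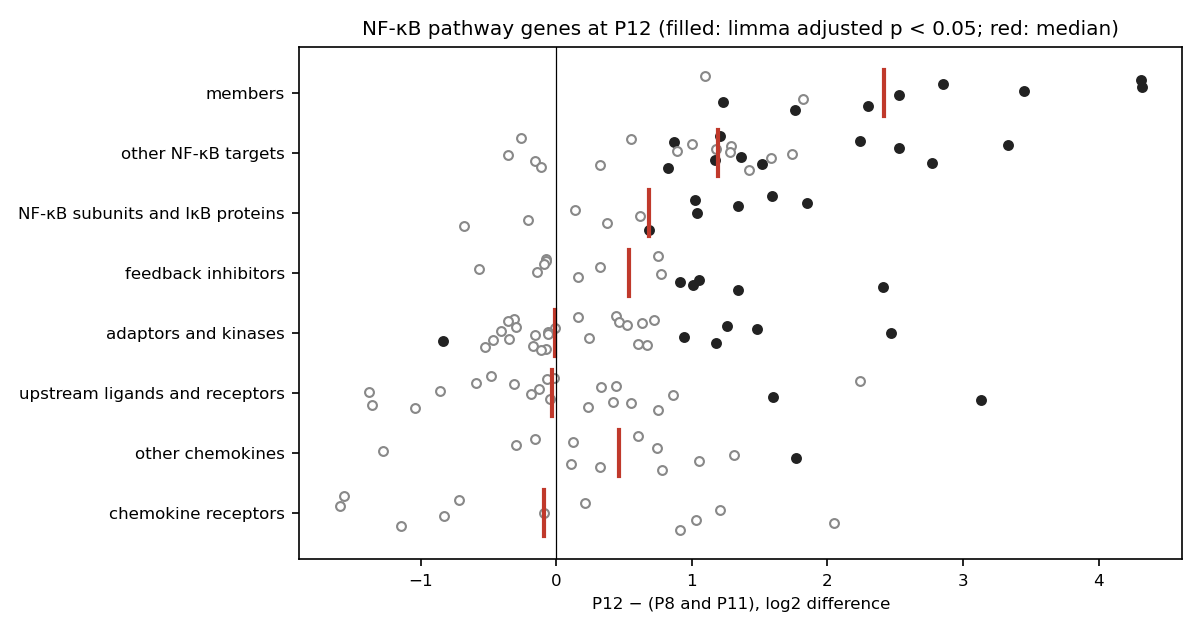
Log2 difference at P12 against P8 and P11 (x axis) for each tested gene (points) of the 10 members and the 7 pathway lists (rows), with the list median as a red bar and genes with a limma adjusted p under 0.05 filled. The medians are 2.41 for the members, 1.19 for the other targets and 0.68 for the subunits and IκB proteins, and lie near 0 for adaptors and upstream genes.

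Between the labels, 4 of the 123 pathway genes (3.25%) were called higher and 1 lower, against 0.953% higher and 4.12% lower over all genes, and their median log2 difference was 0.31, against 0.02. LIF was at 1842.05, 5758.22 and 3403.13 normalized reads in GOLPH3 P8, P12 and P13 and at 904.74, 558.71 and 766.36 in Vector P12, P11 and P13 (2.18, limma adjusted p = 0.00522), so its groups did not overlap. The lymphotoxin β receptor gene LTBR (1.65, adjusted p = 0.00705), the TWEAK gene TNFSF12 (2.03, adjusted p = 0.0145) and the chemokine CXCL16 (1.33, adjusted p = 0.02) were the others higher under the label GOLPH3. CCL2, which attracts monocytes, had no read in any library labelled GOLPH3 and was at 16.47, 6.57 and 10.3 normalized reads in Vector P12, P11 and P13 (adjusted p = 0.00525). Without the P number in the fit, no subunit, IκB protein, adaptor, kinase, feedback inhibitor or chemokine receptor was called between the labels. With the P number as a block, 41 of the 123 genes were called in either direction, beside 5549 of all 26536 genes tested. By list, 5 of 11 subunits and IκB proteins were higher, and of 29 adaptors and kinases 8 were higher and 1 lower. Of 14 feedback inhibitors 4 were higher, and of 24 other NF-κB targets 8 were higher and 3 lower. Upstream ligands and receptors had 6 higher and 3 lower of 22, and other chemokines 1 higher and 2 lower of 12. Of all genes 2503 (9.43%) were called higher, and the rest of the 5549 were lower. Examples of those higher were NFKB2 (1.21, limma adjusted p = 0.000988), RBCK1 (1.28, adjusted p = 0.000124) and BCL3 (1.28, adjusted p = 0.000383), chosen after their values had been seen. No chemokine receptor was called in that fit either.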

How the data were processed

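Each line was sequenced in 3 libraries. The deposited signal gives each gene 1 value in each library. Nonzero values fell, in 100.0% of cases, on multiples of a step of 0.8246 to 1.0955 per library (tolerance 0.01 steps), that is, read counts, scaled by the authors with 1 size factor per library, without correction for length. The submitters' processing notes name fastp 0.20.0, HISAT2 2.1.0, featureCounts 1.6.1, Cufflinks, DESeq2 and GRCh38, with no role or order. The annotation, the strand setting and the handling of reads with several matches are not given in the sources used here. The table had 60590 rows for 60546 identifiers, 44 second rows were added to the first, and 58367 identifiers (96.4%) were in GENCODE 29, which gave coordinates and lengths.

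limma 3.58.1 in R 4.3.3, with a mean-dependent prior variance, was applied to log2(normalized reads + 1) of the 26536 genes that reached 1 in 3 or more libraries, with Benjamini-Hochberg adjustment of p over all of them. Fold changes are on that scale and understate the change of low genes. The models held the label, or the label and the P class (P12, P13, or P8 with P11). The scripts were tested on simulated data.

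The alternatives were edgeR 4.0.16 and DESeq2 1.42.0 on the recovered reads, quantile normalization, no filter, a stricter filter, a pseudocount of 0.1, blocks and covariates, and each library left out. The P12 and P13 fits without the label term and with libraries left out, the P12 fits against all other libraries or against P13, the interaction, and the search for the shorter κB core were added after seeing the data. Deviations from the group means over 12662 genes correlated at 0.60 to 0.65 between libraries of the same P class and at -0.49, -0.28 and 0.60 between libraries of the same replicate number, so the replicate numbers do not pair the libraries. The members and gene lists were chosen with earlier results of these data known. All members are named, with, from each list, up to 3 genes called between the labels with the smallest p, the 3 of highest mean level, and the 5 genes most like CXCL8 and NFKBIA. IKBKB, TNF, LTA, LTB, the receptors of the members and the further genes called at P12 were named outside this rule. A gene that this rule names is not reported here.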

Additional observations from a re-analysis of the deposited data

How the results depend on the processing

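Between the labels, where no member was called, 4 members were called with the P number as a block, 2 with it as a numeric covariate and 1 at an unadjusted p under 0.05, and leaving out each library in turn gave 0 to 1. With the replicate number as a block, 0 members were called. No member was called with edgeR, DESeq2, quantile normalization, either filter or a pseudocount of 0.1. Of the 123 pathway genes tested, 5 were called in the comparison of labels, 9 with DESeq2, 41 with the P number as a block, 23 with it as a covariate, 26 at an unadjusted p under 0.05, and 2 to 16 with a library left out. Over all 26536 genes tested, 5549 were called with the P number as a block, and 4663 had an unadjusted p under 0.05 without it. The log2 difference of CCL20 between the labels, -0.13, was 0.62 with edgeR, 0.12 with quantile normalization and 0.37 with the numeric covariate. Leaving out a library moved it from -1.62 to 0.95, that of CXCL2 from -0.91 to 1.82, CXCL3 from -1.22 to 1.05, CXCL8 from -0.54 to 1.04 and TNFAIP3 from -0.94 to 0.25. CXCL1 (0.20 to 1.91), RELB (0.43 to 1.94), NFKBIA (0.18 to 0.90), ICAM1 (1.65 to 3.77) and BIRC3 (-1.14 to -0.08) kept their sign.

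At P12, 8 members were called with edgeR, quantile normalization, the stricter filter and a pseudocount of 0.1, 0 without the label term with identical estimates, 0 against all 4 other libraries with positive ones (CXCL8 2.28), and 2 to 9 with a library left out. At P13, where 4 were called, edgeR gave 3, quantile normalization 2, a pseudocount of 0.1 gave 2, omission of the label term gave 0 with identical estimates, and leaving out a library gave 1 to 7, with BIRC3 between -1.45 and 0.25. The causes of these changes were not tested.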
